A study of Drosophila melanogaster with 12 samples.

Results

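The invader families are LTR retrotransposons of *Drosophila*, and the 5 families measured here, invader1 to invader5, were taken by name as every TE row called invader followed by a digit. They made up 5 of the 123 TE rows in each piRNA table and 5 of the 127 TE rows in the table of genes and TEs, which also held 15240 genes. An LTR retrotransposon is flanked by long terminal repeats, is transcribed from the first of them and copies itself into new sites through reverse transcription of that RNA. The invader elements are of the gypsy-like kind. In the germline such elements are held in check by piRNAs, small RNAs that guide the PIWI proteins Piwi, Aub and Ago3. Antisense piRNAs pair with the TE transcript, while sense piRNAs are cut from it, and in the ping-pong cycle each strand prompts the production of the other. A sense and an antisense value for each family therefore describe separate sides of the same process.

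Testes of klp10ARNAi flies were compared with testes of wild type flies, all aged 0 to 2 days, to ask whether loss of the microtubule-depolymerizing kinesin Klp10A alters piRNA production and TE transcripts. In klp10ARNAi, nos-gal4 drives a UAS hairpin against *klp10A* in germ cells, chiefly the early ones, so that later germ cells and somatic cells of the testis share the tube with the targeted cells. The wild type group is labelled only as such, and whether it carried the driver is not given in the sources used here. There were 3 libraries per genotype for small RNA and 3 per genotype for rRNA-depleted RNA. Each of the 12 libraries was made from 300 dissected pairs, and the replicates were stated to be biological. In whole testes, fewer cells of a type and less RNA per cell cannot be told apart.

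The targeted gene, *Klp10A*, had 13.2, 14.4 and 13.1 CPM in klp10ARNAi replicates 1 to 3, against 76.7, 57.0 and 73.6 CPM in wild type replicates 1 to 3. CPM are counts scaled to library size with TMM factors. Its log2 fold change was -2.35 (SE 0.16, edgeR adjusted p = 0.00105). Without klp10ARNAi replicate 1 or 3 the adjusted p from edgeR was 0.0114 or 0.0174, over the limit of 0.01 for genes. The mRNA libraries held between 18634700 and 25536700 counts (rounded to 6 digits). Germ cell markers were present, with all 4 spermatogonial, 7 spermatocyte and 8 spermatid genes of the marker lists tested and 0 called at an adjusted p under 0.01 from edgeR, against 2.05% of all genes tested. The spermatogonial genes summed to 54.9 to 57.9 CPM in klp10ARNAi and 42.6 to 44.3 CPM in wild type (median log2 fold change 0.48), without overlap. That sum was mostly *bgcn* (0.38). The others were *nos* (0.64), *bam* (0.57) and *vas* (0.12), and the groups overlapped at *vas*. The spermatocyte genes summed to 103 to 107 CPM in klp10ARNAi and 67.8 to 82.8 CPM in wild type, also without overlap (median log2 fold change 0.48). The spermatid sums overlapped, at 1717 to 2090 CPM in klp10ARNAi and 1479 to 1940 CPM in wild type (median 0.15). Some genes of midgut, Malpighian tubule and fat body moved with genotype, while the sums of accessory gland and of ejaculatory bulb genes overlapped between genotypes. The 4 midgut genes tested, of 5 listed, had a median of -6.30 on the log2 scale, and 1 of them, *Jon65Aiv*, was called lower (-6.51). Its wild type libraries were uneven, at 19.0, 3.27 and 4.96 CPM in replicates 1 to 3. The midgut sum of 83.6 to 114 CPM in klp10ARNAi, against 213 to 251 CPM in wild type, was mostly *Amy-p* (-0.89). Of 4 Malpighian tubule genes, *Uro* (-3.82) and *Irk3* (-3.62) were called lower, while *ZnT35C*, at 26.4 to 31.0 CPM in klp10ARNAi and 26.8 to 32.6 CPM in wild type, made up much of the sum of 30.6 to 39.3 CPM in klp10ARNAi and 50.8 to 78.5 CPM in wild type. The 3 fat body genes summed to 1.94 to 3.29 CPM in klp10ARNAi and 4.42 to 9.17 CPM in wild type, also without overlap, and the 1 tested, *Lsp2*, was not called (-1.64, adjusted p = 0.0232 from edgeR). These genes were named after their values were seen. The part of such differences between the testes in the piRNA and transcript values below was not tested.

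Antisense piRNA rose 3.44-fold at invader4 and 2.76-fold at invader1, more than at most TEs. It was 1.43-fold and 1.40-fold higher at invader2 and invader3, under the limit on fold used here, and near the limit of detection at invader5. The values are normalized counts, the authors' estimates of piRNA per TE scaled between libraries by miRNA hairpin reads, on a scale that is not given in the sources used here. Low values fell on regular steps, so the value of 1 read could be estimated as 33.0, 39.2 and 44.8 normalized counts in klp10ARNAi replicates 1 to 3 and 39.4, 43.1 and 37.2 in wild type replicates 1 to 3. In each library at least 50% of the values under 300 lay within 0.75 of a whole multiple of the step. The step was chosen to make this share, less the share by chance, as large as possible, so the share does not test the step. It was sought only within a preset range, so much finer or coarser steps were not considered. A floor of 3 reads, which covers counting error only, is thus 99.1 to 134 normalized counts. The files do not give the lengths of the families, so levels are not ranked between families. A family was called changed at an adjusted p under 0.1 from limma, adjusted over all 123 TEs, with a change over 1.5-fold.

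At invader4 (FBgn0063427), antisense piRNA measured 112831, 104770 and 78578 normalized counts in klp10ARNAi, against 27984, 30777 and 26580 in wild type. The lowest klp10ARNAi library thus lay far above the highest wild type library, although replicate 3 was lower than the other klp10ARNAi replicates. On the log2 scale the change was 1.78 (SE 0.16, limma adjusted p = 0.000285), or 3.44-fold, and ranked 4th of the 123 TEs. With each library left out in turn it stayed between 1.68 and 1.94.

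At invader1 (FBgn0063430), antisense piRNA measured 107233, 107995 and 104143 normalized counts in klp10ARNAi, against 36090, 44175 and 35928 in wild type. Replicates were tight in klp10ARNAi, with a coefficient of variation of 1.92%, against 12.2% in wild type. The rise was 2.76-fold (log2 1.47, SE 0.10, adjusted p = 0.000209 from limma) and ranked 8th of the 123.

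The antisense piRNA of invader3 (FBgn0063428) measured 354829, 321823 and 386423 normalized counts in klp10ARNAi, against 229778, 267415 and 263294 in wild type. At invader2 (FBgn0063429) it measured 74896, 70363 and 80534 in klp10ARNAi, against 48164, 54185 and 55721 in wild type. Neither family's groups overlapped. The log2 fold changes were 0.48 (SE 0.11, limma adjusted p = 0.00670) at invader3 and 0.52 (SE 0.09, adjusted p = 0.00303) at invader2, or 1.40-fold and 1.43-fold. These passed the limit on p and not the limit on fold, and with each library centred on its median over TEs both turned negative (-0.29 and -0.25).

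Very little piRNA fell on invader5 (FBgn0063426). Its antisense value was 82, 157 and 45 normalized counts in klp10ARNAi and 157, 129 and 186 in wild type, which is an estimated 2.5, 4.0 and 1.0 reads against 4.0, 3.0 and 5.0 reads. Sense piRNA came to 99, 78 and 45 normalized counts in klp10ARNAi and 39, 86 and 37 in wild type, or at most 3.0 reads in any library. The groups overlapped on both strands, and neither strand was called (antisense log2 fold change -0.89, SE 0.45, limma adjusted p = 0.114, and sense adjusted p = 0.330). The antisense value rested on single libraries, at -0.45 to -1.34 with a library left out, and was called lower without klp10ARNAi replicate 2 (-1.34, adjusted p = 0.0129 from limma). It was also called lower after centring on the median over TEs (-1.66, adjusted p = 0.0552). The family is also the smallest by named genomic copies. The FlyBase insertion symbols in the reference table give 3 insertions to invader5, against 47 to invader1, 33 to invader3, 32 to invader4 and 23 to invader2.

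Counted over the families, antisense piRNA was called higher at 2 of 5, against 62.6% of all TEs (77 of 123), and lower at 0 of 5, against 2.44%. The klp10ARNAi values lay wholly above the wild type values at 4 of 5 families, where 81.3% of all TEs did the same. The families had a median log2 fold change of 0.52, beside 0.79 over all TEs with quartiles of 0.48 and 0.99. They straddled that range, with invader1 and invader4 above the upper quartile and invader2 and invader3 near the lower one.

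**Figure D1:**
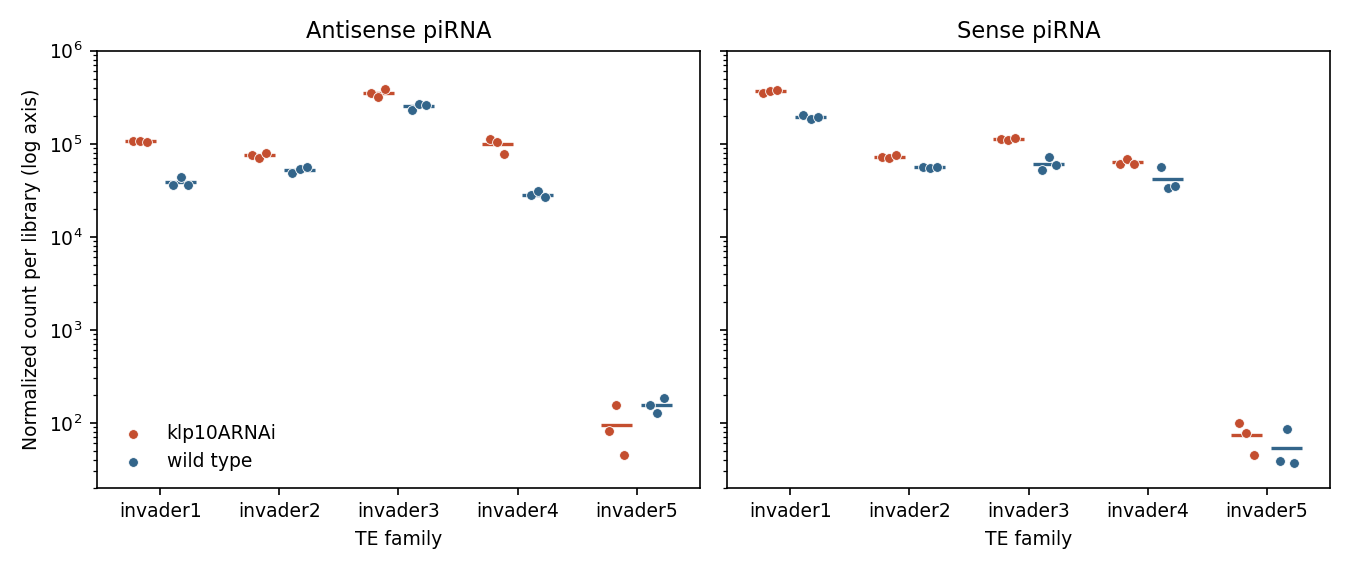
Normalized counts of antisense (left) and sense (right) piRNA at each invader family, on a log axis shared by both panels, with 1 point per library, klp10ARNAi in red left of wild type in blue, and a bar at the mean of 3 libraries. The antisense values of invader4 reach 112831 in klp10ARNAi against at most 30777 in wild type, while invader5 stays at or under 186 in every library.

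Sense piRNA rose at invader1, invader3 and invader4 by 1.56-fold to 1.88-fold with the authors' normalization. The rises at invader1 and invader3 were near the median over all TEs (log2 0.85), while that at invader4 ranked 92nd of the 123. The value at invader4 turned negative on the log2 scale (-0.14) when libraries were centred on their median over TEs. At invader1 sense piRNA measured 355533, 365119 and 375946 normalized counts in klp10ARNAi, against 202965, 185390 and 195758 in wild type. The sense strand was the major one in both genotypes. The log2 fold change was 0.91 (SE 0.10, limma adjusted p = 0.000835).

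Sense piRNA of invader3 measured 112931, 110922 and 115078 normalized counts in klp10ARNAi, against 51896, 72326 and 59019 in wild type. Its log2 fold change of 0.90 (SE 0.15, limma adjusted p = 0.00189) was nearly that of invader1, although the antisense difference was far smaller at invader3 than at invader1. After centring on the median over TEs, neither sense change was called, at 0.12 for invader3 and 0.13 for invader1.

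The sense change at invader4 depended on single libraries. It measured 60487, 69119 and 60649 normalized counts in klp10ARNAi, against 56285, 33727 and 35288 in wild type, where replicate 1 stood apart from the others and came close to the klp10ARNAi libraries without overlapping them. The log2 fold change of 0.64 (SE 0.22, limma adjusted p = 0.0327) corresponds to 1.56-fold, just over the limit. It dropped under the fold limit without klp10ARNAi replicate 2 (0.58), wild type replicate 2 (0.51) or wild type replicate 3 (0.54), and it was 0.88 without wild type replicate 1.

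At invader2, sense piRNA measured 72222, 70674 and 75477 normalized counts in klp10ARNAi, against 56256, 54400 and 56625 in wild type. The groups were tight and apart, but the difference of 1.31-fold was under the fold limit (log2 0.38, SE 0.09, adjusted p = 0.00945 from limma), and it was -0.40 after centring on the median. In all, 3 of 5 families were called higher in sense piRNA, against 75.6% of all TEs (93 of 123), and 0 of 5 lower, against 1.63%. The klp10ARNAi values lay wholly above wild type at 4 of 5 families and at 78.9% of all TEs. The median over the families was 0.64, beside 0.85 over all TEs.

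With both strands summed, invader4 rose 2.32-fold (log2 1.21, SE 0.15, adjusted p = 0.000253 from limma) and invader1 rose 2.02-fold (log2 1.02, SE 0.07, adjusted p = 6.20e-05). These were 2 of 5 families, where 71.5% of all TEs were called higher. Both calls were lost on the fold limit when libraries were centred on their median over TEs, at 0.58 for invader4 and 0.38 for invader1, and invader5 was then called lower (-1.07, adjusted p = 0.0493 from limma). The total at invader3 was 1.49-fold higher, just under the limit, and was called without klp10ARNAi replicate 2 (log2 0.63), wild type replicate 2 (0.63) or wild type replicate 3 (0.59). At invader2 it was 1.36-fold higher. The libraries of the genotypes did not overlap at 4 of 5 families, all higher in klp10ARNAi, as at 83.7% of all TEs.

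**Figure D2:**
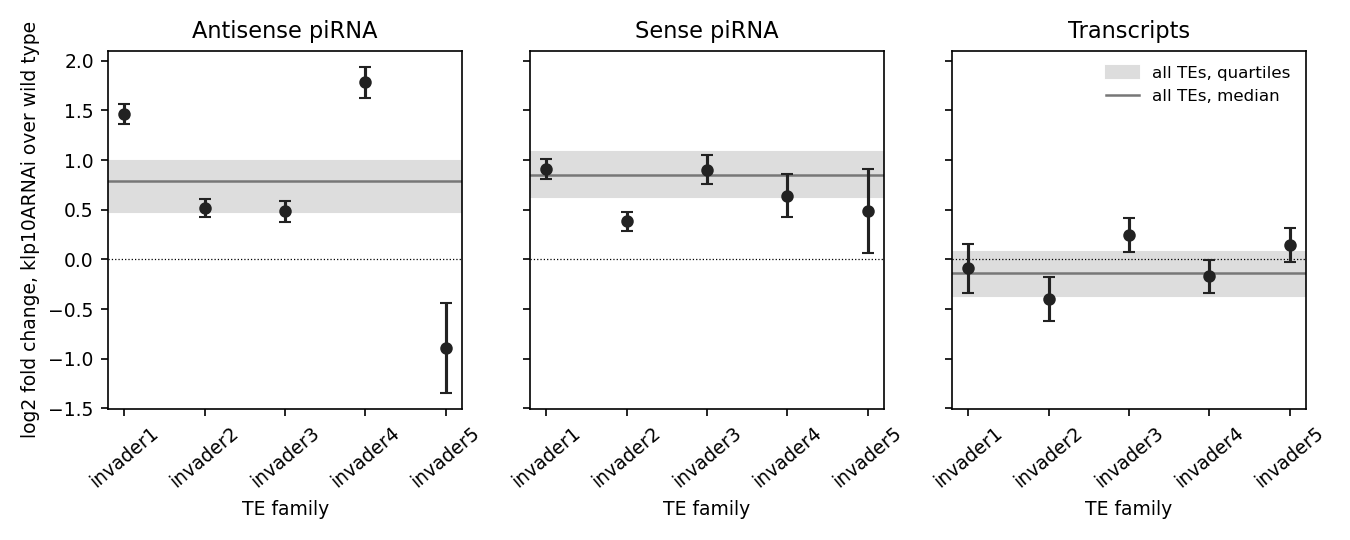
Log2 fold change of klp10ARNAi over wild type for each invader family in antisense piRNA, sense piRNA and transcripts; error bars are the SE of the fit on 3 libraries per genotype, the grey line and band are the median and quartiles over all TEs, and the dotted line is 0. Antisense values spread from -0.89 at invader5 to 1.78 at invader4, while all transcript values lie between -0.40 and 0.24.

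Most TEs gained piRNA in klp10ARNAi, so each family was also set against TE piRNA as a whole by scaling every library to its sum over all TEs. On that scale the antisense piRNA of invader4 was 1.90-fold higher in klp10ARNAi (log2 0.93, SE 0.18, adjusted p = 0.0232 from limma) and that of invader1 was 1.53-fold higher (log2 0.61, SE 0.08, adjusted p = 0.00993). Among all TEs only 4.07% (5 of 123) were called higher in this comparison, invader1 and invader4 among them. The call at invader1 sat close to the fold limit and was lost without klp10ARNAi replicate 2 (0.58) or wild type replicate 3 (0.57), whereas invader4 kept its call with any single library left out, at 0.81 to 1.12.

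The antisense piRNA of invader3 (-0.37, adjusted p = 0.0346 from limma) and invader2 (-0.34, adjusted p = 0.0456) gained less than TE piRNA as a whole, by under 1.5-fold. A call was also made at invader5 (-1.74, adjusted p = 0.0550 from limma), where 9.76% of all TEs were called lower. That call rests on an estimated 1.0 to 5.0 reads per library and was lost without klp10ARNAi replicate 1 or 3 or wild type replicate 1 or 3. For sense piRNA relative to all TEs, 0 of 5 families were called by limma, against 13% of all TEs, and 1 of 5 (invader2, -0.41, adjusted p = 0.0701) had an unadjusted p under 0.05.

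The balance between strands differed widely between families. In wild type the sense share of a family's piRNA averaged 83.4% ± 2.28 at invader1, 58.7% ± 7.40 at invader4, 51.5% ± 2.10 at invader2 and 19.3% ± 1.69 at invader3 (SD, n = 3 libraries each). Among the 109 TEs with a mean total of at least 1000 normalized counts, the wild type sense share had a median of 32.3% and quartiles of 13.8% and 49.0%. On that list invader1 ranked 8th from the top, invader4 22nd, invader2 24th and invader3 75th.

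Among invader1 to invader4, the strand balance shifted most at invader4, where the sense strand was the minor one in klp10ARNAi and the major one in wild type. Its sense share was 34.9%, 39.7% and 43.6% in klp10ARNAi, against 66.8%, 52.3% and 57.0% in wild type. All klp10ARNAi libraries lay below 50% and all wild type libraries above it. The ratio of sense to antisense piRNA on the log2 scale, which does not depend on the normalization between libraries, fell by 1.14 (SE 0.27, limma adjusted p = 0.0697). That was the only family called for the ratio, 1 of 5, against 9.76% of all TEs in either direction (12 of 123). The call was lost without klp10ARNAi replicate 1 (adjusted p = 0.223 from limma), 2 (0.189) or 3 (0.107) or wild type replicate 3 (0.159), with values between -1.33 and -0.89 throughout.

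At invader1 the sense share was 76.8%, 77.2% and 78.3% in klp10ARNAi, against 84.9%, 80.8% and 84.5% in wild type. The groups did not overlap, and the log2 ratio differed by -0.56 (SE 0.14, limma adjusted p = 0.0866), under the fold limit. It was called without wild type replicate 2, at -0.69. The share went the other way at invader3, with 24.1%, 25.6% and 22.9% in klp10ARNAi, against 18.4%, 21.3% and 18.3% in wild type, and that difference was not called (log2 ratio 0.42, SE 0.12, adjusted p = 0.109). At invader2 the groups overlapped, at 48.4% to 50.1% in klp10ARNAi and 50.1% to 53.9% in wild type. The few reads of invader5 gave a larger log2 ratio change of 1.38 (SE 0.56, limma adjusted p = 0.159), with overlapping groups, and it was called without wild type replicate 2 (1.90). In this ratio klp10ARNAi lay wholly below wild type at 2 of 5 families, against 13.8% of all TEs, and wholly above it at 1 of 5, against 24.4%.

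**Figure D3:**
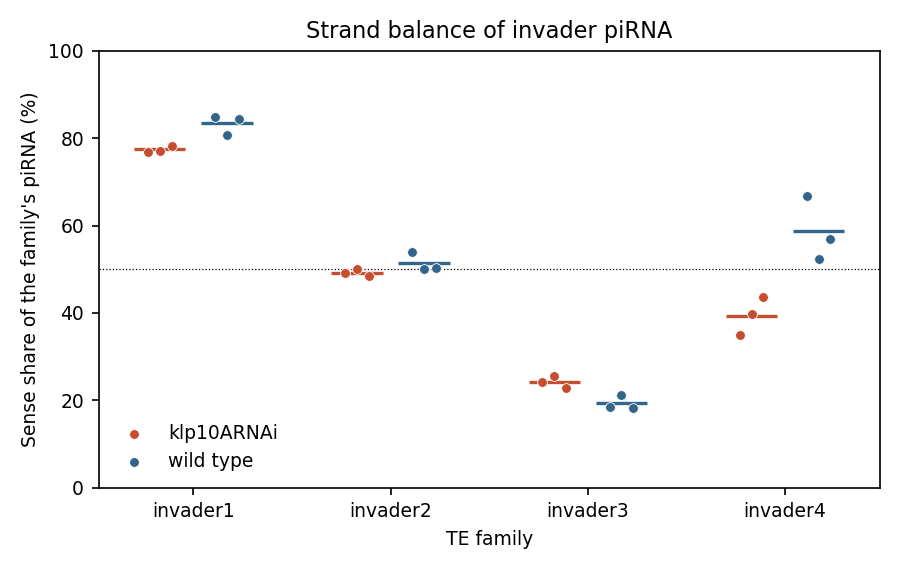
Sense share of the piRNA of invader1 to invader4 in percent, with 1 point per library, klp10ARNAi in red left of wild type in blue, a bar at the mean of 3 libraries and a dotted line at equal strands. At invader4 the klp10ARNAi libraries lie at 34.9% to 43.6% and the wild type libraries at 52.3% to 66.8%; invader5 is left out for its few reads.

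No invader family was called changed in its transcripts. Of 126 TEs tested with edgeR, 9.52% were called (12 TEs, 10 of them lower), and the 5 families were not among them. None of the 5 had an unadjusted p under 0.05, and DESeq2 called 0 of 5. The counts come from STAR alignments with up to 100 sites per read, shared out by TEtranscripts, so reads of near-identical copies or of copies within genes count toward a family. The strand setting of the counting is not given in the sources used here, so sense and antisense transcripts of a family cannot be told apart.

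For invader4, the family with the largest antisense rise, transcripts measured 206, 155 and 189 CPM in klp10ARNAi, against 207, 195 and 217 CPM in wild type. The log2 fold change was -0.17 (SE 0.16, edgeR adjusted p = 0.530), with a 95% interval of 0.684-fold to 1.15-fold. A change as large as that of its antisense piRNA thus lies outside the interval.

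Transcripts of invader1 measured 473, 385 and 525 CPM in klp10ARNAi, against 382, 663 and 426 CPM in wild type, where replicate 2 was the highest of all 6 libraries. Its log2 fold change was -0.09 (SE 0.25, edgeR adjusted p = 0.833; 95% interval 0.634-fold to 1.39-fold), and the sign turned without wild type replicate 2 (0.19) or klp10ARNAi replicate 2 (0.025). Wild type replicate 2 was also the highest for invader2, at 586 CPM. The invader2 transcripts measured 390, 313 and 353 CPM in klp10ARNAi and 451, 586 and 357 CPM in wild type. The groups overlapped, at -0.40 on the log2 scale (SE 0.22, edgeR adjusted p = 0.291).

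At invader3 transcripts measured 365, 401 and 409 CPM in klp10ARNAi, against 302, 377 and 314 CPM in wild type. With TMM scaling the groups overlapped in 1 wild type library. The log2 fold change was 0.24 (SE 0.17, edgeR adjusted p = 0.395, 95% interval 0.906-fold to 1.55-fold). Transcripts of invader5 were scarce, at 4.80, 5.87 and 5.50 CPM in klp10ARNAi, from 119, 148 and 132 counts, and 5.58, 4.84 and 4.24 CPM in wild type, from 106, 68 and 88 counts. Its transcripts were thus counted at 68 reads or more in each library, where its piRNA came to an estimated 5.0 reads at most per strand.

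Library scaling weighs on the transcript values. TMM factors ran from 0.99 to 1.33 in klp10ARNAi and from 0.70 to 1.04 in wild type, and scaling by total counts in place of TMM gave a median log2 fold change of 0.50 over all genes, against 0.01 with TMM. With total counts the values of invader1 (0.46), invader2 (0.15) and invader4 (0.33) changed sign, and still 0 of 5 families were called by edgeR. The values of invader3 and invader5 stayed positive under all alternatives. Their highest were 0.74 and 0.63, both over the fold limit. For invader3 that was above the upper end of its interval with TMM (log2 0.63). Before any scaling, invader3 counts were 9064, 10109 and 9810 in klp10ARNAi and 5734, 5303 and 6520 in wild type, without overlap. The overlap of its groups is thus given for TMM scaling only. Under each of the alternatives run for transcripts, the count of called families was 0.

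**Figure D4:**
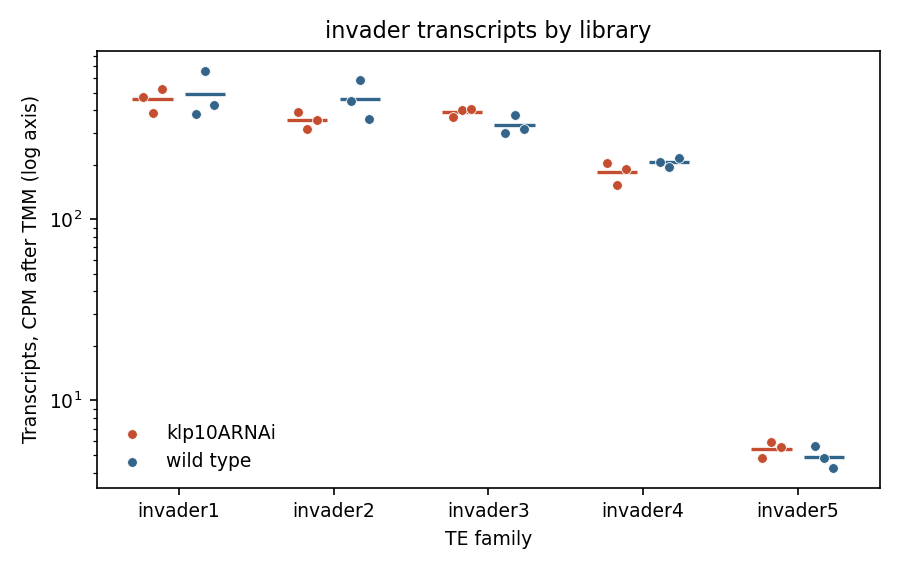
Transcripts of each invader family in CPM after TMM scaling, on a log axis, with 1 point per library, klp10ARNAi in red left of wild type in blue, and a bar at the mean of 3 libraries. The groups overlap in each of the 5 families; invader5 lies at 4.24 to 5.87 CPM.

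As a share of all TE transcripts, the 5 families took 1.95%, 1.47% and 1.82% in klp10ARNAi, against 1.04%, 0.988% and 1.05% in wild type. Transcripts of the copia element made up 27.7% to 30.9% of the TE counts in klp10ARNAi and 53.9% to 55.2% in wild type. The copia share was thus lower in klp10ARNAi, where the invader share was higher. With copia left out of the sum, an alternative chosen after seeing the data, the invader share was 2.69%, 2.04% and 2.64% in klp10ARNAi and 2.26%, 2.18% and 2.34% in wild type, and the groups overlapped. Of antisense TE piRNA the families took 2.54%, 2.39% and 2.38% in klp10ARNAi, against 2.67%, 2.41% and 2.70% in wild type. Without invader3, which held most of the summed antisense counts, the share was 0.966% to 1.15% in klp10ARNAi and 0.785% to 0.875% in wild type. The sum over all TEs also includes the Su(Ste) and Stellate repeats. With those repeats left out and invader3 kept, the share was 3.91%, 3.82% and 3.76% in klp10ARNAi. In wild type it was then 4.01%, 3.99% and 4.17%, above every klp10ARNAi library.

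Antisense piRNA of other gypsy-like elements was looked at beside that of the invader families. The 12 gypsy and numbered gypsy families had antisense log2 fold changes from -0.72 to 0.92 with a median of 0.85, and 9 were called higher and 1 lower. All 7 elements of the mdg1 group were called higher, with values from 0.66 to 1.26. In the 10 elements of an errantivirus group, 7 were called higher, with a median of 0.70. Neither the spread nor the counts were tested between these groups. The antisense values of invader1 and invader4 exceeded the highest value in each of these groups, which do not cover all TEs. Tom1, which is in none of them, had an antisense log2 fold change above that of invader1 (1.67, SE 0.60, limma adjusted p = 0.0423).

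The TEs most like each family were sought by the distance between their log2 fold changes in antisense piRNA, sense piRNA and transcripts, over the 123 TEs in all tables. The nearest to invader1 were Stalker2 (distance 0.263) and Stalker (0.265), both with antisense changes over 1.2. To invader2 the nearest were Burdock (0.176) and G4 (0.329), and to invader3 the X element (0.156) and Idefix (0.160). The nearest to invader4 lay farther off, flea at 0.462 and transib1 at 0.584, as did those to invader5, frogger at 0.810 and Tc1_2 at 0.912. These distances are a description of 3 fold changes per TE.

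The genes that make and use piRNAs were looked up in the same transcript fit. Of 36 listed, 33 were matched to a row and 32 were tested, and 0 passed an adjusted p under 0.01 from edgeR, where 2.05% of all genes tested did. A total of 6 had an unadjusted p under 0.05 from edgeR, and DESeq2 called 1. Shares of all genes at those limits are not given here, so neither count is read as a result about the pathway. The gene called by DESeq2 was arx, which encodes the Piwi partner Asterix. It measured 2.22, 2.77 and 2.42 CPM in klp10ARNAi, against 1.21, 0.924 and 1.16 CPM in wild type (log2 1.15, SE 0.21, edgeR adjusted p = 0.0181). This gene and the PIWI genes that follow were named after their values were seen. Of the PIWI proteins, *aub* had 10.8, 9.75 and 11.5 CPM in klp10ARNAi, against 5.73, 6.26 and 9.20 CPM in wild type, and was not called (adjusted p = 0.111 from edgeR). The log2 fold change was 0.21 for *piwi* (adjusted p = 0.471 from edgeR) and -0.09 for *AGO3* (0.75).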

How the data were processed

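The series holds small RNA and rRNA-depleted RNA libraries of whole testes. For small RNA, the authors clipped adapters (Trimmomatic 0.27), set aside rRNA and miRNA hairpin reads (Bowtie2 2.2.3), aligned the remainder to dm3 with at most 1 mismatch, kept lengths of 23 to 29 nt, estimated abundance per TE with eXpress and scaled by miRNA hairpin reads. As deposited, these values are whole numbers and were treated as a score, called normalized count here, not as reads. For mRNA, the authors used STAR 2.6.0a and TEtranscripts, and the deposited table was analysed as counts. The rows' class field reads LTR for all 127 TEs and was not used.

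For testing, log2(value + 1) was tested with limma 3.58.1 without trend, and counts with edgeR 4.0.16 (TMM over genes and TEs, filterByExpr, quasi-likelihood F-test) in R 4.3.3, leaving 126 TEs and 11974 genes. P-values were adjusted by Benjamini-Hochberg over all features of a fit. A TE was called at an adjusted p under 0.1 and over 1.5-fold, a gene under 0.01. The rate of false calls and of missed changes in these data was not tested. Replicate numbers did not pair the libraries. Alternatives were other pseudocounts, filters, limits, scalings, DESeq2 1.42.0, a replicate block and leaving out each library. The naming rule covered all 5 invader families, *Klp10A*, the 2 TEs nearest to each family and piRNA pathway genes that pass. Since 0 pathway genes passed with edgeR, arx, *aub*, *piwi* and *AGO3* were named outside that rule, as were copia, Tom1 and marker genes. The families, gene lists and marker lists were chosen with earlier results of these data known. The hub and cyst cell, accessory gland and ejaculatory bulb markers had 0 called genes from edgeR, with 6, 6 and 2 genes tested.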

Additional observations from a re-analysis of the deposited data

How the results depend on the processing

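Among alternative values for single families and *Klp10A*, 445 kept direction and call, 19 gained a call, 23 lost one and 16 changed sign. Counts of calls in this paragraph come without the share of all TEs or genes at the same setting. They are therefore not read as particular to the families or the listed genes. Antisense calls numbered 4 of 5 families with no fold limit, and the other antisense alternatives gave 2 or 3. Centring on the median over TEs, which removes a change shared by all TEs, gave 0 called families for sense and 1 for total piRNA, which was invader5, lower in klp10ARNAi (-1.07), while invader1 (0.38) and invader4 (0.58) lost their calls, and reversed invader2 (antisense -0.25, sense -0.40, total -0.19), invader3 (antisense -0.29, total -0.065), invader4 (sense -0.14) and invader5 (sense -0.29). Total piRNA gave 4 with no fold limit and 2 to 4 with a library left out. The strand ratio gave 2 with no fold limit, 0 at an adjusted p under 0.05 and 0 to 3 with a library left out. Relative to all TEs, antisense gave 5 with no fold limit and 1 to 3 with a library left out, and sense gave 1 with no fold limit. With a library left out, sense values relative to all TEs ran from -0.00102 to 0.24 at invader1, -0.37 to 0.18 at invader4 and -0.54 to 0.063 at invader5. Transcripts with total counts reversed invader1 (0.46), invader2 (0.15) and invader4 (0.33), and those of invader1 ran from -0.24 to 0.19 with a library left out. Pathway genes called were 1 with total counts, 1 with DESeq2 and 3 at an adjusted p under 0.1. The difference in invader share was -0.15 percentage points for antisense piRNA, 0.25 without invader3; -0.13 for total piRNA, 0.11 without invader3 and -0.30 to 0.039 with a library left out; -0.33 to 0.41 for sense piRNA with a library left out; and 0.72 for transcripts, 0.20 without copia. The cause was not tested.

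With a replicate block the strand ratio was called at 0 families (invader4 adjusted p = 0.185 from limma), and the antisense call of invader5 relative to all TEs was lost (0.140), and the block changed no other call of a family or of *Klp10A*. Same-numbered libraries correlated at -0.35 to 0.24 for antisense, -0.70 to -0.13 for sense and -0.38 to -0.085 for transcripts in their deviations from group means, and not every library correlated best with its own number. Depth limits invader5, at an estimated 1.0 to 5.0 piRNA reads per strand and library, and 3 libraries per genotype limit the rest.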
